A study of Homo sapiens with 6 samples.

Results

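Histone lysine methyltransferases and demethylases were examined in H9 cells, an established clonal cell line of cutaneous T-cell lymphoma (CTCL), by bulk RNA-seq. The genes were chosen by name: those beginning with KMT, KDM, SETD, NSD or SMYD and a number, SETDB, SUV39H, EHMT, PRDM and a number, and DOT1L. PRDM1, KDM5D, pseudogenes and hyphenated names were left out, so that 65 of 61541 genes in the count table were included. The cells carried no engineered change (genotype WT) and were treated with vehicle (DMSO, 3 libraries) or with AZD4573, a selective CDK9 inhibitor (50 nM for 4 h, 3 libraries). The single clonal line, 1 time point and 1 dose limit the comparison to this setting. The labels do not say whether the replicates were separate cultures, so that p-values measure the spread between these libraries, which may be technical.

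CDK9 is the kinase of P-TEFb, which phosphorylates RNA polymerase II and its pausing factors and so releases the paused polymerase into elongation. Histone lysine methyltransferases place methyl groups on lysines of the histone tails, most of them through a SET domain. Demethylases remove the methyl groups, either with a flavin cofactor (the KDM1 enzymes) or with iron and 2-oxoglutarate (the JmjC enzymes). H3K4 methylation marks promoters and enhancers, H3K36 and H3K79 methylation lie over transcribed gene bodies, and H3K9, H3K27 and H4K20 methylation mark silenced chromatin. Several of these enzymes are mutated, fused or overexpressed in lymphoid malignancies, and small molecules against some of them are in clinical use or under study.

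The authors deposited counts per gene estimated with RSEM, in whole numbers and not normalized. Total counts ranged from 70367303 to 76571157 with DMSO and from 52101868 to 63795185 with AZD4573. The summed level of 9 T-lineage markers was 1160 to 1177 CPM with DMSO and 1317 to 1337 CPM with AZD4573, where CPM is a gene's count scaled to the total of its library. CD2 was nearly absent (0.109 and 0.0116 CPM), and all 4 myeloid markers lay under 1 CPM in each library. CD79A, a B-lineage gene, was at 59.9 and 90.2 CPM, and EPCAM, an epithelial gene, was at 161 and 129.7 CPM, while the other 3 B-lineage and the other 2 epithelial markers lay under 1 CPM. The part of these genes in the results was not tested. The mRNAs encoded by mitochondrial DNA, which RNA polymerase II does not transcribe, made up 3.13% of the counts with DMSO and 4.85% with AZD4573.

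Levels in the following are CPM with library sizes scaled by edgeR's TMM method, which sets the bulk of genes to no change. Differences between the treatments were tested gene by gene with the quasi-likelihood test of edgeR on the 17678 genes that passed its filter on low counts, and p-values were adjusted by the Benjamini-Hochberg method over all of these genes. A gene rose or fell where the adjusted p was under 0.05, and it was called where the change was also at least 1.5-fold. All levels are thus relative to the other transcripts of the library, and fewer cells of a kind and less RNA per cell cannot be told apart.

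Upon AZD4573 treatment, falls outnumbered rises among the genes of histone lysine methylation. Of the 65 genes, 56 were tested. Of these, 23 were called lower (41.1%, where 23.7% of all genes tested were called lower). Among them were the JmjC enzymes KDM8 and KDM3A, the H3K4 demethylases KDM5A, KDM5B and KDM5C, and the H3K9 methyltransferases SUV39H1, SUV39H2, SETDB2 and EHMT1. PRDM15, PRDM2 and the H3K27 demethylase KDM6B were called higher (5.36%, against 22.7% of all genes). In either direction, 26 of the 56 genes were called, beside 46.4% of all genes. Without the fold criterion, 32 genes fell (57.1%, against 37.4%) and 15 rose (26.8%, against 37.3%), and 9 did not pass. For 33 genes each AZD4573 library lay below each DMSO library (58.9%, against 38.7% of all genes), for 14 each lay above (39.0% of all genes), and for 9 the groups overlapped. The median log2 fold change of the 56 genes was -0.36, compared to 0.03 for all genes and -0.07 for the 13423 protein-coding genes tested. Among these protein-coding genes, 27.2% were called lower and 18.2% higher. Without the fold criterion 44.3% of them fell and 35.8% rose. The AZD4573 libraries lay below all DMSO libraries for 45.5% of them and above for 37.0%.

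**Figure D1:**
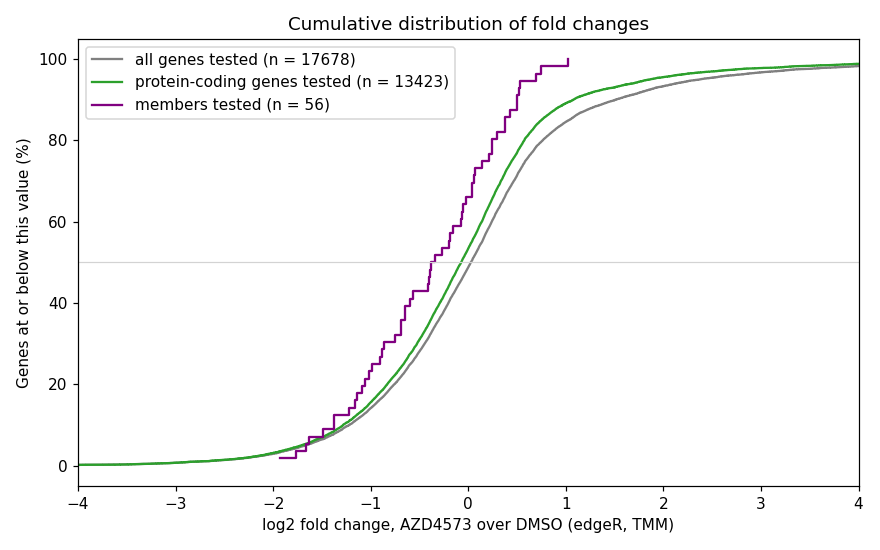
Share of genes (y axis, in percent) at or below each log2 fold change of AZD4573 over DMSO (x axis) for the 56 histone lysine methylation genes tested, 13423 protein-coding genes and all 17678 genes. The curve of the 56 genes crosses 50% at -0.36, to the left of the protein-coding genes (-0.07) and of all genes (0.03), and mitochondrial scaling moves the curves of the 56 genes and of all genes to medians of -1.10 and -0.71.

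The direction of the rises depended on the scaling. When the 13 mRNAs of mitochondrial DNA set the scale of each library instead, the median of all genes moved to -0.71 and that of the 56 genes to -1.10, of which 42 were called lower and 0 higher by edgeR's test. Of all genes tested, 53.4% were then called lower and 10.007% higher. Under this scaling 14 of the 15 rises lost their significance or changed sign, and PRDM15 alone still passed as higher (0.29, edgeR, adjusted p = 0.0031). The rises below are therefore rises relative to other transcripts.

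**Figure D2:**
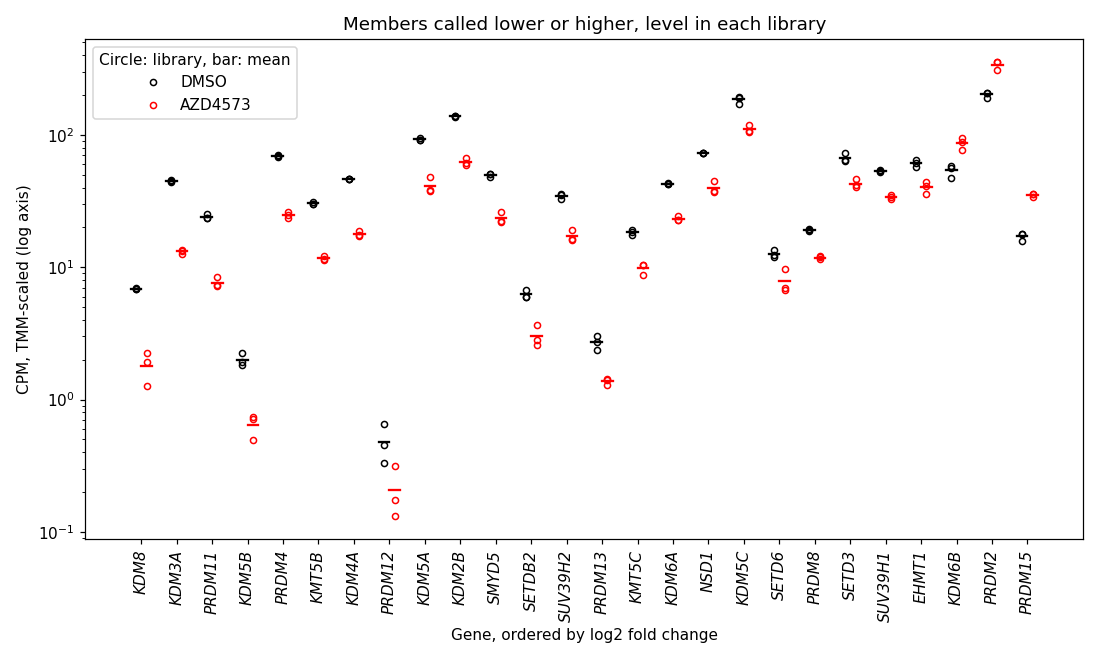
Level of the 26 genes called lower or higher (y axis, TMM-scaled CPM on a log axis) in each library, ordered by log2 fold change. Circles are libraries (3 DMSO in black, 3 AZD4573 in red) and bars are group means. The groups do not overlap for any of the 26 genes, which were chosen by their change in these same libraries. Of all genes tested, 38.7% lie lower and 39.0% higher without overlap. PRDM12 lies under 1 CPM and its circles spread widely, and with mitochondrial scaling 0 genes are called higher.

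Among the genes not tested, PRDM7, PRDM14 and PRDM16 had at most 6 counts in any library, and PRDM6, PRDM9, SMYD1, KDM4E and KDM4F had 0 counts in all 6 libraries. Taken as 3 counts, the upper limit of such a gene was 0.0392 CPM in the deepest library, for counting error only. Several of these genes are known from germ cells (PRDM9, PRDM14) or from muscle (SMYD1).

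In 3 pairs of closely related enzymes, KDM4A with KDM4C, NSD1 with NSD2, and KDM6A with KDM6B, a called fall stood beside a rise on the TMM scale. KMT2A with KMT2B and NSD2 with NSD3 also moved apart on that scale, but with a fall of less than 1.5-fold. The 250 bases upstream of their annotated starts are shown for the first 3 pairs because their directions differ, with the gene called lower first (RefSeq, GRCh38.p14, plus strand, 5′ to 3′). They lie at chr1:43649899-43650148, chr9:6757723-6757972, chr5:177131548-177131797, chr4:1871143-1871392, chrX:44872938-44873187 and chr17:7833967-7834216. Capitals mark matches on either strand to the letters TATAAA of the TATA box, to CCAAT as the CCAAT box, to GGGCGG as the GC box, to CACGTG as the E-box, to CCGGAA as the core of ETS factor motifs and to TGACGT from the cyclic AMP response element, and the NRF1 motif had no match in these windows. Overlapping GC box matches of NSD2 form 2 runs, and matches to different motifs did not overlap.
KDM4A: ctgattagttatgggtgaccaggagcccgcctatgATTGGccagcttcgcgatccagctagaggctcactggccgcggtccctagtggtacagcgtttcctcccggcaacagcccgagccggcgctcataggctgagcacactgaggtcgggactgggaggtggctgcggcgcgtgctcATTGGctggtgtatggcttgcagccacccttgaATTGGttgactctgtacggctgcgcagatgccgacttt
KDM4C: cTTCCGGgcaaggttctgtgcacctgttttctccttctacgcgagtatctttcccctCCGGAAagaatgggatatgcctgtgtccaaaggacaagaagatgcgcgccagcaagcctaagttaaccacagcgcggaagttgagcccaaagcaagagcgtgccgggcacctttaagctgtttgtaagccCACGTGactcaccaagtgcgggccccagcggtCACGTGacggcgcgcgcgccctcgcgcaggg
NSD1: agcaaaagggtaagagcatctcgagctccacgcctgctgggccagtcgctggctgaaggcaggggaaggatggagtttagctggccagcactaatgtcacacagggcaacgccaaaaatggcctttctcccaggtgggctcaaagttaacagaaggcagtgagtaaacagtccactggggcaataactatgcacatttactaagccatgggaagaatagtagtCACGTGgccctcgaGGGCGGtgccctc
NSD2: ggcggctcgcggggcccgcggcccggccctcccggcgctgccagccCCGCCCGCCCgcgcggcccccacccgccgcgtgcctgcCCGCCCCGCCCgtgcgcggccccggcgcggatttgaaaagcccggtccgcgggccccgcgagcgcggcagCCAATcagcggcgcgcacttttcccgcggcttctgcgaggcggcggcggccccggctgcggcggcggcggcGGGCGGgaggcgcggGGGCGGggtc
KDM6A: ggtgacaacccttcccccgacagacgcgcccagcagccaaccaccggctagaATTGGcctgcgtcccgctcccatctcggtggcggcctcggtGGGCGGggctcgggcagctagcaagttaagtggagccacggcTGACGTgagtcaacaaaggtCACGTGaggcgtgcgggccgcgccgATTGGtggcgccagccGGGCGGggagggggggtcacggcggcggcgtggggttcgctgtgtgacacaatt
KDM6B: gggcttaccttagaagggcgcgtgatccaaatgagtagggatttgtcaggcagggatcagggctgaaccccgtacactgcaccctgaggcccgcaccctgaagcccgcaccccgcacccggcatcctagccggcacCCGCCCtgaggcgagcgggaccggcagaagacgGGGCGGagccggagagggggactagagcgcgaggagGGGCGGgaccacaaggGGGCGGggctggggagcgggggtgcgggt
The window of KDM4A held 3 CCAAT matches and that of KDM4C 2 E-box and 2 ETS matches. The start that RefSeq gives for KDM4C lies inside the gene as GENCODE draws it. NSD1 had 1 E-box and 1 GC box, and NSD2, at 86.0% G and C, had 6 GC box matches and 1 CCAAT. KDM6A carried 2 CCAAT, 2 GC box, 1 E-box and 1 TGACGT match, and KDM6B carried 4 GC box matches. A match describes letters in the window and does not mark a bound site.

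Of the 6 H3K4 methyltransferases, 0 were called in either direction, 2 fell, 3 rose under TMM and 1 did not pass. Among all genes tested 46.4% were called, 37.4% fell and 37.3% rose. KMT2A, which maintains promoter H3K4 methylation and is fused to other genes in acute leukaemia, was at 102, 102 and 108 CPM with DMSO and 125, 123 and 122 CPM with AZD4573. It rose by 0.24 ± 0.043 (SE) on the log2 scale (edgeR, adjusted p = 0.00017), although its value was -0.49 under mitochondrial scaling. Its paralog KMT2B was at 144, 166 and 176 CPM with DMSO and 127, 126 and 115 CPM with AZD4573, and it fell (-0.40 ± 0.068 (SE), edgeR, adjusted p = 0.00011). KMT2D, which acts with KMT2C on enhancers and is often mutated in lymphoma, was at 183, 188 and 206 CPM with DMSO and 167, 161 and 153 CPM with AZD4573 and fell (-0.27 ± 0.052 (SE), edgeR, adjusted p = 0.00038). The AZD4573 libraries of both KMT2B and KMT2D lay below all DMSO libraries. KMT2C did not pass (-0.08, 95% interval -0.23 to 0.07, from the SE with 4 degrees of freedom). The promoter enzymes SETD1A and SETD1B, catalytic subunits of COMPASS, were at log2 fold changes of 0.15 and 0.52 under TMM and -0.59 and -0.22 under mitochondrial scaling. SETD1A passed narrowly (edgeR, adjusted p = 0.045) and no longer passed without DMSO replicate 1 or 2 or AZD4573 replicate 1 or 2 (edgeR, adjusted p from 0.069 to 0.25). KMT2E and SETD5, which carry SET domains without established histone activity, stood at 0.03 (95% interval -0.09 to 0.16) and 0.05 (-0.09 to 0.20).

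All 3 H3K4 demethylases of the KDM5 group were called lower, as were 23.7% of all genes tested. KDM5B (chr1:202724495-202808487), which is highly expressed in several carcinomas, was at 1.92, 1.83 and 2.25 CPM with DMSO and 0.707, 0.491 and 0.737 CPM with AZD4573. This was a 3.10-fold fall at a low level (-1.63 ± 0.21 (SE), edgeR, adjusted p = 9.4e-06). KDM5A (chr12:280057-389320), first described as a binding partner of the retinoblastoma protein, was at 95.3, 90.8 and 91.1 CPM with DMSO and 47.8, 38.5 and 37.8 CPM with AZD4573 (-1.16 ± 0.075 (SE), edgeR, adjusted p = 1e-08). Its AZD4573 replicate 1 was the highest of the treated libraries but still lay far below all DMSO libraries. KDM5C (chrX:53176283-53225422), an X-linked enzyme mutated in intellectual disability, was at 171, 194 and 190.2 CPM with DMSO and 118, 108 and 105 CPM with AZD4573 (-0.75 ± 0.057 (SE), edgeR, adjusted p = 5.3e-08). The fall was thus 1.68-fold for KDM5C and 2.24-fold for KDM5A, and in all 3 genes the groups stood apart.

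The flavin-dependent demethylase KDM1A (LSD1), which removes mono- and dimethylation of H3K4, did not pass. It was at 192, 184 and 187 CPM with DMSO and 184, 198 and 197 CPM with AZD4573 (log2 fold change 0.04, 95% interval -0.08 to 0.16), and the groups overlapped. KDM1B, its relative that acts in oocytes and over gene bodies, was at 17.2, 17.8 and 16.4 CPM with DMSO and 21.9, 22.6 and 22.4 CPM with AZD4573. It rose under TMM (0.38 ± 0.061 (SE), edgeR, adjusted p = 7.1e-05) and stood at -0.36 under mitochondrial scaling.

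**Figure D3:**
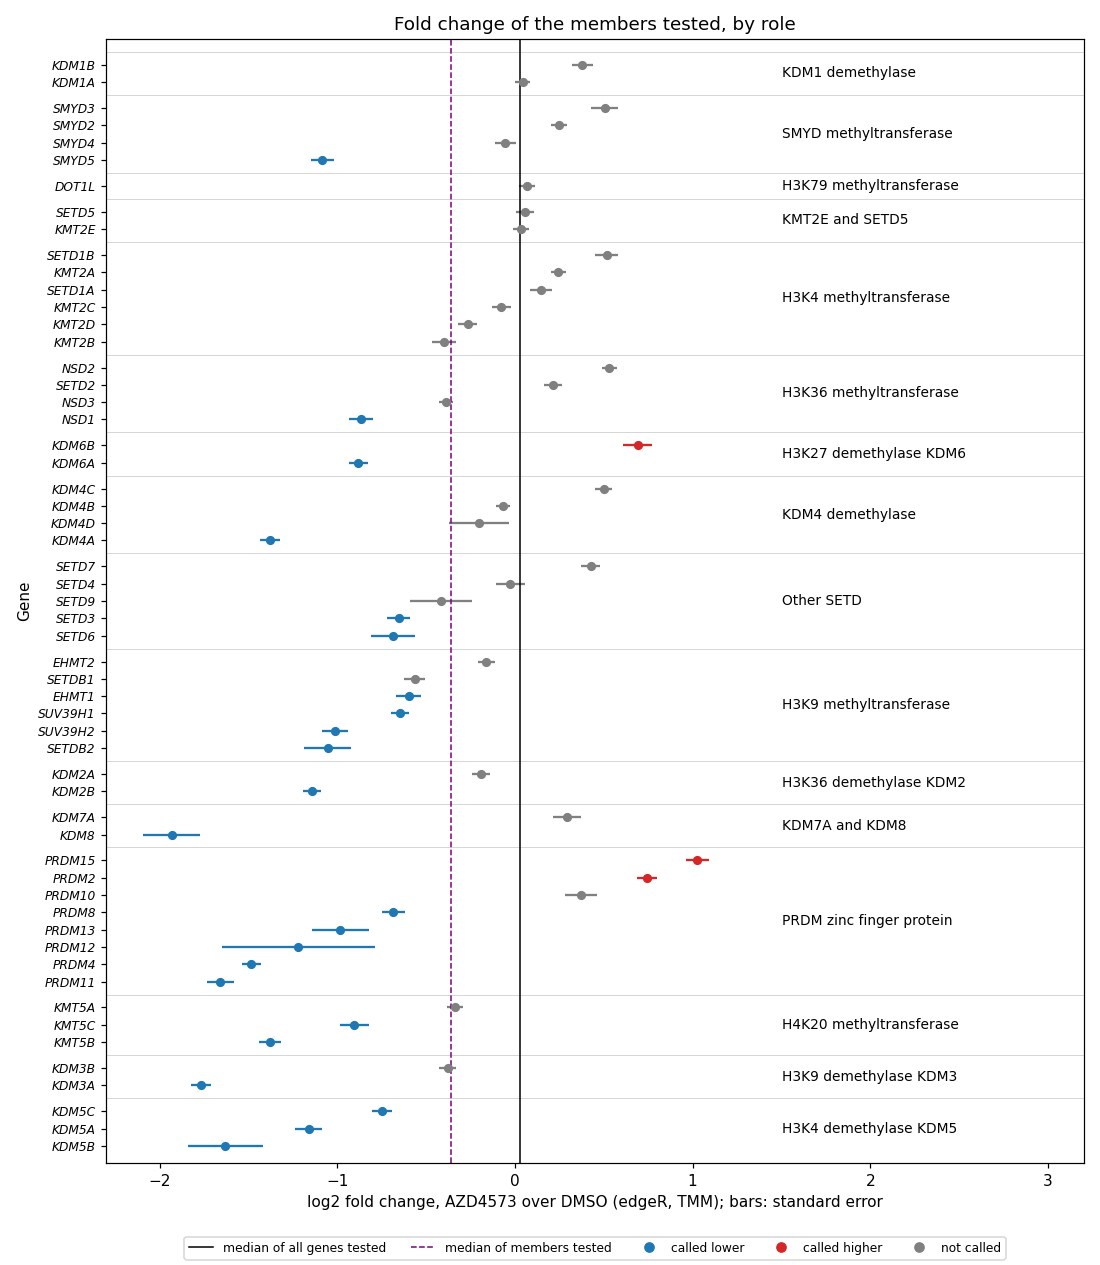
Log2 fold change of AZD4573 over DMSO (x axis, edgeR with TMM) for each of the 56 genes tested (y axis), grouped by role. Points are estimates and bars are standard errors, with genes called lower in blue, called higher in red and not called in grey. The KDM5 demethylases lie between -1.63 and -0.75, the H3K4 methyltransferases lie between -0.40 and 0.52, and under mitochondrial scaling all points shift to lower values.

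The 6 H3K9 methyltransferases SUV39H1, SUV39H2, SETDB1, SETDB2, EHMT1 and EHMT2 fell, and 4 of them were called lower. Among all genes tested 37.4% fell and 23.7% were called lower. PRDM2, also described as an H3K9 methyltransferase, was called higher and is given with the PRDM proteins. SUV39H1 and SUV39H2 trimethylate H3K9 in constitutive heterochromatin. SUV39H2 (chr10:14878820-14904315) was at 35, 35.7 and 32.8 CPM with DMSO and 19.04, 16 and 16.2 CPM with AZD4573, a 2.02-fold fall (-1.01 ± 0.072 (SE), edgeR, adjusted p = 2.6e-08). SUV39H1 was at 54.4, 52.2 and 52.9 CPM with DMSO and 35.1, 32.98 and 33.7 CPM with AZD4573 (-0.65 ± 0.050 (SE), edgeR, adjusted p = 5.6e-08). Each treated library lay below each control library for both genes. SETDB1, which silences retroelements together with TRIM28, fell without reaching 1.5-fold, from 45.7, 48.1 and 48.2 CPM with DMSO to 34.6, 31.5 and 29.9 CPM with AZD4573 (-0.57 ± 0.060 (SE), edgeR, adjusted p = 1.4e-06). Its relative SETDB2 (chr13:49444274-49495003) was at 5.99, 6.77 and 5.93 CPM with DMSO and 3.64, 2.81 and 2.59 CPM with AZD4573 (-1.06 ± 0.13 (SE), edgeR, adjusted p = 8.1e-06). EHMT1 (GLP) and EHMT2 (G9a) work as a heterodimer that mono- and dimethylates H3K9 in euchromatin, and both fell. EHMT1 was at 57.1, 64.1 and 61.4 CPM with DMSO and 43.7, 41.3 and 35.7 CPM with AZD4573 (-0.60 ± 0.071 (SE), edgeR, adjusted p = 4.3e-06). EHMT2 was at 88.7, 91.9 and 95 CPM with DMSO and 79.01, 85.02 and 82.4 CPM with AZD4573 (-0.16 ± 0.047 (SE), edgeR, adjusted p = 0.0072).

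Of the demethylases that act on H3K9, both KDM3 enzymes and KDM4A fell. KDM3A (chr2:86440647-86492716) removes mono- and dimethylation of H3K9 and is induced by hypoxia in many cells. It was at 45.1, 44.2 and 45.2 CPM with DMSO and 13.6, 13.3 and 12.6 CPM with AZD4573, a 3.41-fold fall (-1.77 ± 0.057 (SE), edgeR, adjusted p = 3.4e-11). KDM3B was at 94.8, 99.1 and 101 CPM with DMSO and 79.9, 74.6 and 72.4 CPM with AZD4573 and fell by less than 1.5-fold (-0.38 ± 0.050 (SE), edgeR, adjusted p = 1.1e-05). KDM4A, KDM4B and KDM4C demethylate trimethylated H3K9 and H3K36, and KDM4D acts on H3K9. KDM4A (chr1:43650149-43705518), whose upstream sequence is given above, was at 46.01, 46.7 and 46.7 CPM with DMSO and 18.9, 17.2 and 17.6 CPM with AZD4573 (-1.38 ± 0.056 (SE), edgeR, adjusted p = 1.7e-10). KDM4C (chr9:6720863-7175648) was at 43.8, 44.8 and 46.5 CPM with DMSO and 61.7, 64.4 and 64.9 CPM with AZD4573 (0.50 ± 0.048 (SE), edgeR, adjusted p = 5.6e-07). In the treated libraries KDM4A thus lay below and KDM4C above all controls. The KDM4C value was -0.24 under mitochondrial scaling. KDM4B, at 358, 365 and 354 CPM with DMSO and 342, 352 and 335 CPM with AZD4573, did not pass (-0.07, 95% interval -0.17 to 0.04), nor did KDM4D, which lay under 2 CPM in each library (-0.20, -0.68 to 0.27).

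The 4 H3K36 methyltransferases divided into 2 falls and 2 rises, where 37.4% of all genes fell and 37.3% rose. SETD2, which trimethylates H3K36 behind the elongating polymerase and is mutated in T-cell lymphomas, was at 118, 126 and 127 CPM with DMSO and 135, 150.2 and 145 CPM with AZD4573. It rose slightly under TMM (0.21 ± 0.050 (SE), edgeR, adjusted p = 0.0017) and stood at -0.53 under mitochondrial scaling. The NSD enzymes dimethylate H3K36. NSD1 (chr5:177131830-177300213), mutated in an overgrowth syndrome, was at 73.3, 72.3 and 72.6 CPM with DMSO and 44.98, 37.7 and 36.9 CPM with AZD4573 (-0.87 ± 0.067 (SE), edgeR, adjusted p = 5.5e-08). NSD2 (chr4:1871393-1982207), which is translocated in multiple myeloma, was at 206, 219 and 216 CPM with DMSO and 299, 311 and 316 CPM with AZD4573 (0.53 ± 0.042 (SE), edgeR, adjusted p = 6.5e-08), and its value under mitochondrial scaling was -0.21. NSD3 fell without reaching 1.5-fold, with 105, 106 and 106 CPM with DMSO and 79.4, 81.02 and 81.5 CPM with AZD4573 (-0.39 ± 0.041 (SE), edgeR, adjusted p = 1.3e-06). The groups did not overlap for any of the 3 NSD genes. Of the KDM2 demethylases, which bind unmethylated CpG islands and act on dimethylated H3K36, KDM2B (chr12:121429096-121581023) was at 135, 139.8 and 139 CPM with DMSO and 67.3, 61.3 and 59.1 CPM with AZD4573 (-1.14 ± 0.052 (SE), edgeR, adjusted p = 4.1e-10). KDM2A was at 215, 235 and 233 CPM with DMSO and 197, 211 and 191 CPM with AZD4573 (-0.19 ± 0.049 (SE), edgeR, adjusted p = 0.0033), so that the fall was 2.21-fold for KDM2B and 1.14-fold for KDM2A.

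The H3K27 demethylases KDM6A and KDM6B were called in opposite directions. KDM6A (UTX, chrX:44873188-45112779), a tumor suppressor in several cancers, was at 42.8, 43.3 and 42.5 CPM with DMSO and 24.2, 22.9 and 22.7 CPM with AZD4573 (-0.88 ± 0.053 (SE), edgeR, adjusted p = 4.5e-09). KDM6B (JMJD3, chr17:7834217-7854796), an enzyme induced by inflammatory signals, was at 46.8, 56.6 and 58.1 CPM with DMSO and 77.5, 94.7 and 88.3 CPM with AZD4573 (0.69 ± 0.084 (SE), edgeR, adjusted p = 5.2e-06). In the treated libraries KDM6B was above and KDM6A below all controls. Scaling to the mitochondrial mRNAs put KDM6B at -0.05 (edgeR, adjusted p = 0.56) and KDM6A at -1.62. The H3K27 methyltransferases EZH1 and EZH2 are outside the name rule and are given with the partner genes.

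DOT1L, the single H3K79 methyltransferase, did not pass. It was at 184, 205 and 197 CPM with DMSO and 201, 211 and 202 CPM with AZD4573 (0.07, 95% interval -0.06 to 0.20), and the groups overlapped. The 3 H4K20 methyltransferases all fell, where 37.4% of all genes fell. KMT5B (chr11:68154863-68213852) and KMT5C (chr19:55339853-55348121) add the second and the third methyl group. KMT5B was at 30.1, 31.01 and 30.1 CPM with DMSO and 12.1, 11.4 and 11.6 CPM with AZD4573 (-1.38 ± 0.060 (SE), edgeR, adjusted p = 3e-10). KMT5C was at 17.6, 19.1 and 18.5 CPM with DMSO and 10.3, 10.4 and 8.78 CPM with AZD4573 (-0.90 ± 0.080 (SE), edgeR, adjusted p = 2.2e-07). KMT5A, the monomethyltransferase that peaks in mitosis, fell without reaching 1.5-fold (-0.34 ± 0.045 (SE), edgeR, adjusted p = 1.2e-05), and the reads it shares with 3 annotated pseudogenes may have been split.

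The largest fall of all 56 genes was that of KDM8 (chr16:27203508-27221768), a JmjC hydroxylase (JMJD5) whose action on methylated histones is debated. It was at 6.82, 6.98 and 6.83 CPM with DMSO and 2.24, 1.26 and 1.92 CPM with AZD4573, a 3.82-fold fall (-1.93 ± 0.16 (SE), edgeR, adjusted p = 1.2e-07). An opposite-strand gene, ENSG00000259940, shares 14.5% of the exon bases of KDM8 and rose (2.28, edgeR, adjusted p = 9.4e-06). This neighbour had 14 to 21 counts with DMSO and 55 to 71 with AZD4573, where KDM8 had 503 to 535 and 72 to 117. The size of the fall of KDM8 and its rank are therefore uncertain. KDM7A, which demethylates H3K9 and H3K27, rose under TMM (0.29 ± 0.080 (SE), edgeR, adjusted p = 0.0045) and stood at -0.45 under mitochondrial scaling. Of the 4 SMYD genes tested, SMYD5 (chr2:73214222-73227221) was called lower, with 50.7, 47.97 and 50.4 CPM with DMSO and 25.9, 22 and 22.4 CPM with AZD4573 (-1.09 ± 0.065 (SE), edgeR, adjusted p = 4.9e-09). SMYD2 and SMYD3, which methylate many non-histone proteins, rose under TMM by 0.25 and 0.50 (-0.49 and -0.24 under mitochondrial scaling), and SMYD4 did not pass (-0.05). Among SETD proteins with mostly non-histone substrates, SETD6 (-0.69) and the actin histidine methyltransferase SETD3 (-0.65) were called lower. SETD7 rose under TMM (0.43, -0.32 under mitochondrial scaling), and SETD4 did not pass (-0.03). SETD9 passed narrowly (-0.42, edgeR, adjusted p = 0.045) and lost significance without DMSO replicate 1 or 2 or AZD4573 replicate 1 or 2 (edgeR, adjusted p from 0.062 to 0.16).

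PRDM proteins pair a PR domain related to SET with zinc fingers, and several act as transcription factors rather than as methyltransferases. All 8 PRDM genes tested passed, 5 lower (62.5%, against 37.4% of all genes) and 3 higher (37.5%, against 37.3%). PRDM11 (chr11:45095806-45235110) was at 23.6, 23.6 and 25.03 CPM with DMSO and 8.37, 7.37 and 7.16 CPM with AZD4573, a 3.16-fold fall (-1.66 ± 0.076 (SE), edgeR, adjusted p = 4.2e-10). PRDM4 (chr12:107732871-107761272) was at 69.1, 70.3 and 68.5 CPM with DMSO and 25, 25.96 and 23.3 CPM with AZD4573 (-1.48 ± 0.054 (SE), edgeR, adjusted p = 7.4e-11). In both genes each treated library lay far below each DMSO library. PRDM13 (chr6:99606774-99615578), a factor of neural development, was at a low level of 2.74, 3.04 and 2.38 CPM with DMSO and 1.40, 1.44 and 1.29 CPM with AZD4573 (-0.98 ± 0.16 (SE), edgeR, adjusted p = 7.9e-05). PRDM8 fell by 0.68 on the log2 scale. PRDM12 lay under 1 CPM in each library, and its call (-1.22, edgeR, adjusted p = 0.02) was lost without DMSO replicate 3 (-0.94), AZD4573 replicate 2 (-1.12) or AZD4573 replicate 3 (-0.97), with adjusted p from 0.068 to 0.11 by edgeR. In the other direction, PRDM15 (chr21:41798225-41879482), a regulator of stem-cell signaling genes, was at 15.8, 17.9 and 17.9 CPM with DMSO and 35.4, 35.6 and 34.03 CPM with AZD4573. It rose 2.04-fold (1.03 ± 0.064 (SE), edgeR, adjusted p = 7e-09), and it was the single gene of the 56 to pass as higher under mitochondrial scaling (0.29). PRDM2 (chr1:13700188-13825079), also known as RIZ, is described as an H3K9 methyltransferase and tumor suppressor. It was at 191, 208 and 208 CPM with DMSO and 308, 352 and 357 CPM with AZD4573 (0.74 ± 0.057 (SE), edgeR, adjusted p = 5.5e-08), and under mitochondrial scaling it stood at 0.0021 (edgeR, adjusted p = 0.97). PRDM10 rose under TMM by 0.37 and stood at -0.37 under mitochondrial scaling.

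Ratios of counts of related genes within a library do not depend on how libraries are scaled, and they were computed for 19 pairs. In all 19 pairs the ratios of the 3 AZD4573 libraries did not overlap those of the 3 DMSO libraries, and each pair had a two-sided exact permutation p of 0.10 (0.10 after Benjamini-Hochberg adjustment over the 19). With 3 against 3 libraries this is the smallest p the test allows, so that no pair could reach 0.05. Some genes are in several pairs, and how often other pairs of genes stand apart was not computed. Of all single genes tested, 38.7% lay lower and 39.0% higher without overlap, so that separation is common in these data. The ratio of KDM4A to KDM4C was 1.05, 1.04 and 1.00 with DMSO and 0.306, 0.267 and 0.271 with AZD4573. The shift was thus 3.67-fold and the largest of the 19. The KDM6A to KDM6B ratio was 0.914, 0.764 and 0.732 with DMSO and 0.312, 0.241 and 0.257 with AZD4573, a 2.98-fold shift. For NSD1 to NSD2 it was 0.356, 0.330 and 0.337 with DMSO and 0.150, 0.121 and 0.117 with AZD4573 (2.65-fold), and for KDM3A to KDM3B it was 0.475, 0.446 and 0.447 with DMSO and 0.170, 0.178 and 0.174 with AZD4573 (2.62-fold). These ratios moved toward the second gene of the pair, as the fold changes of the single genes did. Ratios of KMT2C to KMT2D moved least, by 1.14-fold, with 0.681, 0.653 and 0.633 with DMSO and 0.730, 0.790 and 0.720 with AZD4573. Shifts of SMYD2, SETD1A and KDM1A against SMYD3, SETD1B and KDM1B were 1.20-fold, 1.29-fold and 1.26-fold. A ratio does not show which gene of a pair was unaffected.

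**Figure D4:**
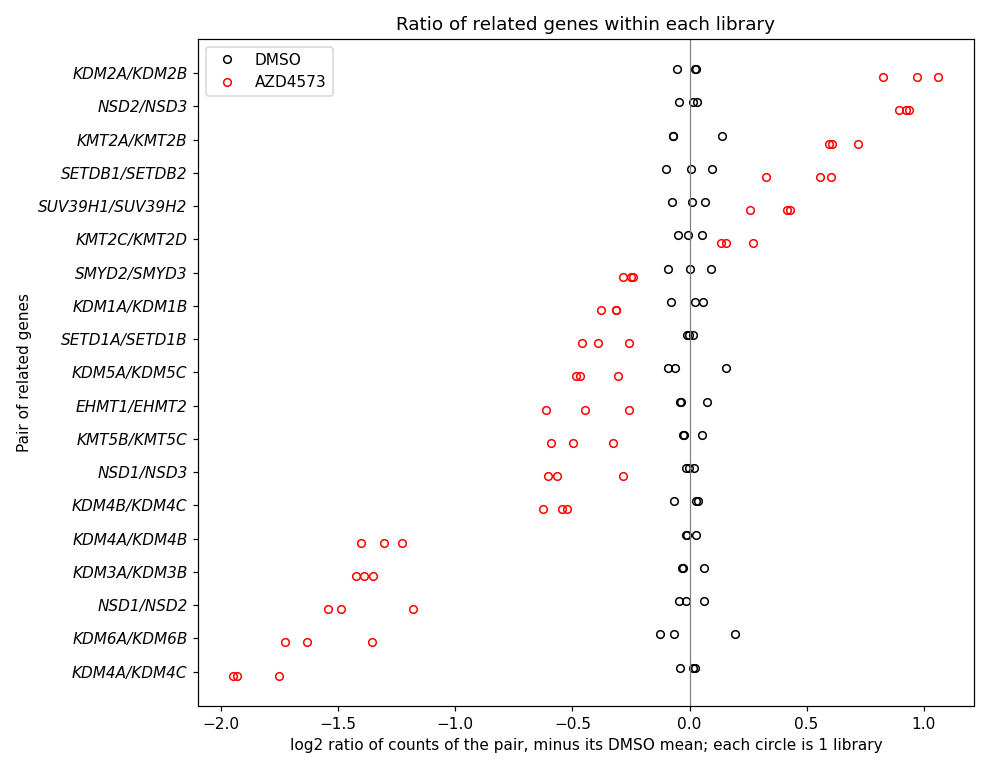
Log2 ratio of the counts of related genes within each library, minus the DMSO mean of the pair (x axis), for 19 pairs (y axis). Each circle is 1 library (3 DMSO in black, 3 AZD4573 in red). In each of the 19 pairs the red circles lie apart from the black ones, from KDM4A/KDM4C at the lower end to KDM2A/KDM2B at the upper end. How often other pairs of genes stand apart was not computed.

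Summed transcript levels of the enzymes for one residue were compared as a description, with no test, in CPM per kb of exon. The length was that of all annotated exons of a gene together, such as 53322 bases for KMT2C and 10807 for KMT2B. Sums and ratios therefore weight the genes by their annotation, and the lengths of the transcripts in H9 cells were not measured. The 6 H3K4 methyltransferases summed to 61.3 ± 4.43 (SD, n = 3) with DMSO and 64.7 ± 3.39 with AZD4573, and the groups overlapped. KDM5A, KDM5B and KDM5C summed to 22.8 ± 0.769 and 12.4 ± 1.04, without overlap. The ratio of these sums was 2.69 ± 0.123 with DMSO and 5.23 ± 0.521 with AZD4573. KDM5D, the KDM1 enzymes and the partner genes are not in these sums, which therefore do not cover all enzymes of H3K4. For H3K9, the 6 methyltransferases without PRDM2 had 48.8 ± 0.355 and 33.1 ± 0.977, and the 6 demethylases of the KDM3 and KDM4 groups had 54.2 ± 0.566 and 44.02 ± 0.844. Their ratio was 0.901 ± 0.00423 with DMSO and 0.753 ± 0.0151 with AZD4573. The direction turned when PRDM2 was counted too, an alternative added after seeing the data, since the ratio was then 1.24 ± 0.00935 with DMSO and 1.46 ± 0.0540 with AZD4573. For H3K36, with the KDM4 enzymes counted again beside KDM2A and KDM2B, the ratio was 0.418 ± 0.00229 with DMSO and 0.565 ± 0.0204 with AZD4573. KDM4D, which acts on H3K9, was in this sum too, at 0.584 CPM per kb with DMSO and 0.508 with AZD4573. The summed transcripts thus stood further on the methyltransferase side for H3K4 and H3K36, while for H3K9 the direction depended on whether PRDM2 was included. Protein and methylation levels were not measured here.

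**Figure D5:**
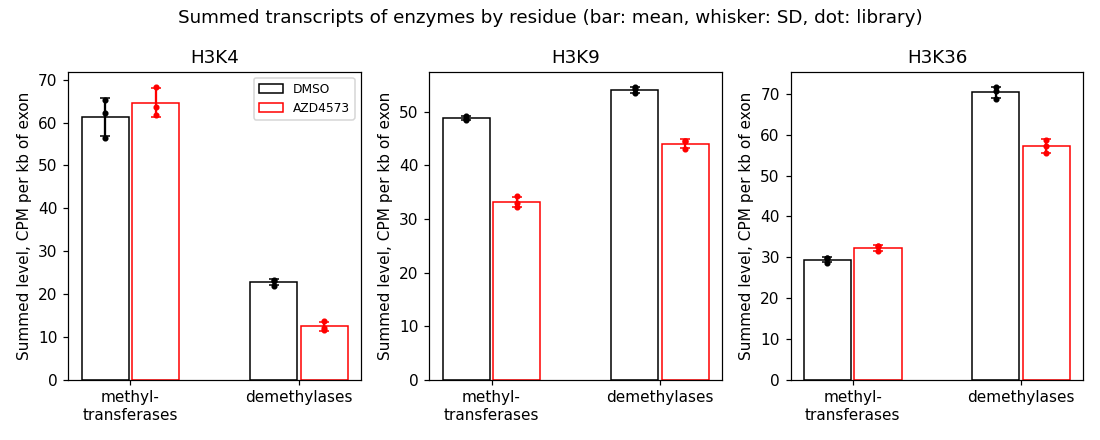
Summed level of methyltransferases and demethylases for H3K4, H3K9 and H3K36 (y axes, TMM-scaled CPM per kb of exon, from 0). Bars are means, whiskers are SD and dots are libraries (n = 3 per group). The KDM5 sum was 22.8 with DMSO and 12.4 with AZD4573, whereas the dots of the H3K4 methyltransferases overlap, and PRDM2 is not in the H3K9 sum.

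Per kb of exon, the levels with DMSO ranged from 0.0804 CPM (KDM5B) to 24.4 CPM (KDM4B), with a median of 5.87 over the 56 genes. KMT5A (23.9) was next to KDM4B. The order depends on the annotated exon length, which was 24899 bases for KDM5B and 4215 for KMT5A. In this order, 34 of the 55 neighbouring genes overlapped in their libraries. On the CPM scale without length, 19 genes lay above 100 CPM with DMSO and 1 gene, PRDM12, below 1 CPM.

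The genes were also described by their length, without a test. The 18 genes spanning less than 30 kb had a median log2 fold change of -0.67, and 10 of them (55.6%) were called lower, compared to 26.99% of the protein-coding genes of that length. The 20 genes of 30 to 100 kb had a median of -0.16, with 35.0% called lower (29.95% of protein-coding genes). Among the 18 genes of more than 100 kb the median was -0.07, and 33.3% were called lower (22.7% of protein-coding genes). Spearman's rho of log2 fold change with span was 0.30 across the 56 genes and -0.03 across the 13423 protein-coding genes. Genes are not independent replicates, and all values share the same 6 libraries, so that this is a description. Rises of long genes such as KDM4C, SMYD3 and NSD2 under TMM stood beside falls of short ones such as KMT5C, SMYD5 and PRDM13. Yet the long genes PRDM11, NSD1 and KDM6A fell as well, and the short genes KDM6B, SETD1A and SETD1B rose under TMM.

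Promoter windows of 250 bases were available for 53 of the 56 genes and for 11315 of all genes tested. The RefSeq start lay far from the GENCODE start for KMT2E (73262 bases), PRDM11 (50833), SETD7 (50480), KDM4C (37110) and SETD4 (18863). Which start H9 cells use was not tested. An E-box lay in 10 of the 53 windows (18.9%, against 8.84% of the 11315), a CCAAT box in 35.8% (35.0%), a GC box in 69.8% (65.7%) and an ETS motif in 22.6% (24.8%). A TATA box lay in 1.89% (5.77%), a TGACGT match in 3.77% (10.5%) and the NRF1 motif in 1.89% (1.99%). Of the windows with an E-box, 3 belonged to the 23 genes called lower and 2 to the 14 windows of genes that rose under TMM. The median content of G and C was 62.4% for the genes called lower and 70.6% for those that rose, with 65.6% for the 53 genes and 64.8% for the 11315.

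RSEM at its default setting does not use the strand of a read, so that reads from overlapping genes cannot be told apart. Of the 56 genes, 27 share exon bases with another gene, 7 of them over 10%. KDM4A shares 48.8% with 2 genes, mainly with ENSG00000284989 on the same strand, which had at most 4 counts in any library. SETD6 shares 27.1% with 2 genes, mainly with CNOT1 on the opposite strand. CNOT1 had 7620 to 16475 counts per library and itself fell (-0.58), so that the call of SETD6 is uncertain. SETDB1 shares 12.9% with CERS2 on the opposite strand, which also fell (-0.70). CERS2 had 3352 to 8277 counts per library, where SETDB1 had 1763 to 3588, so that the fall of SETDB1 is uncertain too. SUV39H1 (21.2%), KMT2A (19.3%) and DOT1L (11.3%) share bases with neighbours, of which the main one had at most 6, 72 and 84 counts in any library. KMT2A and DOT1L each have 2 such neighbours. Counts of the smaller neighbours of KDM4A, SETD6, KMT2A and DOT1L were not examined. KDM3A and SETD6 each have 1 annotated pseudogene.

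The complexes of these enzymes were described with 53 partner genes and other enzymes of lysine methylation, of which 51 were tested. Of these, 18 (35.3%, against 23.7% of all genes) were called lower and 3 (5.88%, against 22.7%) higher, with a median of -0.40. With libraries scaled to the mitochondrial mRNAs 40 were called lower and 0 higher, where 53.4% and 10.007% of all genes were. Of the 15 COMPASS and KMT2 complex subunits, 6 were called lower and 1 higher. RBBP5, a core subunit of every COMPASS-like complex, was at 41.02, 38.1 and 38.3 CPM with DMSO and 10.3, 9.21 and 8.77 CPM with AZD4573 (-2.05 ± 0.071 (SE), edgeR, adjusted p = 5.5e-11). PAGR1, which belongs to the KMT2C and KMT2D complexes, was at 98.6, 88.8 and 83.3 CPM with DMSO and 26.9, 22.8 and 22.6 CPM with AZD4573 (-1.91 ± 0.077 (SE), edgeR, adjusted p = 1.7e-10). PAGR1 shares 48.2% of its exon bases with 4 neighbouring genes, mainly with ENSG00000280893 on the same strand (at most 140 counts in any library), so that its call is uncertain. RBBP5 and PAGR1, the largest falls of the 15 subunits, lay below all controls in each treated library, as did 38.7% of all genes tested. Other subunits changed less, such as ASH2L (-0.49, not called), while WDR5 (-0.11) and BOD1L1 (-0.0083) did not pass. Of the 6 catalytic subunits 0 were called, beside 46.4% of all genes called in either direction. PSIP1 (LEDGF), which tethers KMT2A to chromatin, was at 298, 288 and 281 CPM with DMSO and 441, 459.5 and 460.4 CPM with AZD4573 and rose under TMM (0.65 ± 0.041 (SE), edgeR, adjusted p = 7.9e-09).

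Among 11 partners of LSD1 and other demethylases, 5 were called lower and 0 higher. For this and the next lists, 23.7% of all genes tested were called lower and 22.7% higher. RCOR2, a scaffold of LSD1, was at 2.59, 2.95 and 2.51 CPM with DMSO and 0.786, 0.754 and 0.541 CPM with AZD4573 (-1.96 ± 0.19 (SE), edgeR, adjusted p = 6e-07), whereas KDM1A itself did not pass. PCGF1, which joins KDM2B in a Polycomb complex, was at 6.25, 6.61 and 5.69 CPM with DMSO and 2.63, 2.51 and 2.85 CPM with AZD4573 (-1.21 ± 0.11 (SE), edgeR, adjusted p = 4.4e-07). Of the 4 DOT1L partners tested, 2 were called lower, and AFF1, a scaffold of the super elongation complex that contains P-TEFb, was at 38.6, 39.8 and 41.7 CPM with DMSO and 20.2, 17.7 and 17.5 CPM with AZD4573 (-1.12 ± 0.066 (SE), edgeR, adjusted p = 4.1e-09). The 8 heterochromatin partners tested held 0 genes called lower and 1 called higher. CBX5 (HP1α), which reads H3K9 methylation, was at 299, 302 and 305 CPM with DMSO and 503, 524 and 529 CPM with AZD4573 (0.78 ± 0.039 (SE), edgeR, adjusted p = 1e-09). It rose under TMM.

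The 13 enzymes that the name rule did not take held 5 genes called lower and 1 called higher, beside 23.7% and 22.7% of all genes. RIOX1, a nucleolar oxygenase described as a histone demethylase, was at 106, 102 and 97.4 CPM with DMSO and 33.8, 29.9 and 26.9 CPM with AZD4573 (-1.76 ± 0.072 (SE), edgeR, adjusted p = 1.7e-10). ASH1L, which dimethylates H3K36, was at 44.9, 45.5 and 46.7 CPM with DMSO and 106, 107 and 107 CPM with AZD4573 (1.22 ± 0.044 (SE), edgeR, adjusted p = 6.8e-11), the largest rise of the partner genes under TMM. The H3K27 methyltransferases were named after their values were seen. EZH2, the catalytic subunit of PRC2 in dividing cells, was at 114, 118 and 119 CPM with DMSO and 68.5, 64.5 and 64.99 CPM with AZD4573 (-0.83 ± 0.045 (SE), edgeR, adjusted p = 1.9e-09), and EZH1 was at 34.3, 46.1 and 44.98 CPM with DMSO and 58.05, 62.6 and 61.2 CPM with AZD4573 (0.54 ± 0.089 (SE), edgeR, adjusted p = 9.5e-05). The treated libraries lay below the controls for EZH2 and above them for EZH1.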

How the data were processed

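Bulk RNA-seq of H9 cells covered 3 DMSO and 3 AZD4573 libraries, each assigned to its group and replicate by its title. Per the submitters' processing notes, the authors trimmed the reads with cutadapt 2.3, aligned them to GRCh38 with STAR 2.7.8a and estimated counts with RSEM 1.3.3. The deposited values are expected counts per gene in whole numbers, without normalization (61541 genes, and 5 reporter entries that were left out). The labels describe poly(A) selection and the supplemental methods rRNA depletion.

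For the analysis, edgeR 4.0.16 was run under R 4.3.3. After its filter on low counts (minimum count 10) and TMM normalization, AZD4573 was set against DMSO in the quasi-likelihood test without a block, and p-values were adjusted by Benjamini-Hochberg over 17678 genes. Calls needed an adjusted p under 0.05 and a change of at least 1.5-fold, the fold and p thresholds of the study. The authors state no adjustment. The genes, lists and alternatives were chosen with earlier results of these data known. Any of the genes could be named, except for an item that is not reported here. Values in each library are given for up to 14 called falls and 14 called rises with at least 1 CPM, their closest paralogs and the most studied enzyme of each role, and partner genes are named for up to 6 falls and 6 rises. Ratios of related genes were compared by exact permutation tests. Positions and exons came from GENCODE release 44 on GRCh38 and promoter sequences from RefSeq (GRCh38.p14).

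Alternative settings comprised RLE factors, unscaled library sizes, scaling to 13 mitochondrially encoded mRNAs, no filter, a minimum of 10 counts per library, leaving out single libraries, blocking on the replicate number, DESeq2 1.42.0, a 2-fold threshold and unadjusted p-values. No library was a copy of another, since chi-square per degree of freedom was 5.59 to 21.2 between libraries of a group. At these depths a count of 0 allows 0.0392 to 0.0576 CPM, and such limits cover counting error only.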

Additional observations from a re-analysis of the deposited data

How the results depend on the processing

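Of 727 values for single genes under the alternatives, 674 kept their direction and side of the threshold, and 31 of the 56 genes did so under all of them (44 under all but mitochondrial scaling). Of the genes tested, 23 were called lower and 3 higher, with 21 to 24 and 2 to 3 under RLE factors, library size only, both other filters, DESeq2 and each library left out. Scaling to the mitochondrial mRNAs gave 42 lower and 0 higher by edgeR's test (partner genes 40 and 0, of all genes 53.4% and 10.007%), and a 2-fold threshold gave 13 and 1 (partner genes 7 and 1, of all genes 13.9% and 14.95%). Among the 56 genes, those higher at an adjusted p under 0.05 were 15 under TMM and 1 under mitochondrial scaling. The median of -0.36 was -0.46 with library size only, -1.10 with mitochondrial scaling, -0.30 with at least 10 counts in every library and -0.374 to -0.319 with a library left out. Mitochondrial scaling turned KMT2E (-0.71), KDM1A (-0.70), SETD5 (-0.68), DOT1L (-0.67), SETD1A (-0.59), SETD2 (-0.53), KMT2A (-0.49), SMYD2 (-0.49), KDM7A (-0.45), PRDM10 (-0.37), KDM1B (-0.36), SETD7 (-0.32), KDM4C (-0.24), SMYD3 (-0.24), SETD1B (-0.22), NSD2 (-0.21) and KDM6B (-0.051) to lower values. Library size only turned KMT2E (-0.072), KDM1A (-0.062), SETD5 (-0.050) and DOT1L (-0.038), none of which passed in either fit. Some genes that did not pass under TMM passed as lower in other fits. With library size only these were KMT2C (-0.18), KDM4B (-0.17) and SMYD4 (-0.16), with adjusted p of 0.013, 0.0011 and 0.029 by edgeR. Mitochondrial scaling gave KDM4D (-0.94), KMT2C (-0.81), KDM4B (-0.80), SMYD4 (-0.80) and SETD4 (-0.77) as lower. Near 0, KMT2E was -0.0085 without the filter, and SETD4 was 0.011 with at least 10 counts in every library. With single libraries left out, KMT2E ranged from -0.0099 to 0.061, SETD5 from -0.0069 to 0.075 and SETD4 from -0.11 to 0.015. SETD2 no longer passed with library size only (0.11, edgeR, adjusted p = 0.068), nor did SETD1A (0.040, edgeR, adjusted p = 0.59), which also missed the threshold without the filter (0.10, edgeR, adjusted p = 0.10). SETD9 no longer passed with at least 10 counts in every library (edgeR, adjusted p = 0.065) or with DESeq2 (adjusted p = 0.058). The H3K9 ratio of AZD4573 over DMSO was 0.836 as reported and 1.17 with PRDM2 counted, which was added after seeing the data. The cause of these changes, beyond the scaling itself, was not tested.

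Same-numbered libraries did not deviate together (correlations of -0.0077, 0.089 and -0.050), so that the numbers were not taken to pair the samples. With a replicate block, 23 genes were called lower and 3 higher, 18 and 3 of the partner genes were called, the median was -0.36, and SETD9 no longer passed (edgeR, adjusted p = 0.052). With 3 libraries per group, small changes and genes under 1 CPM such as PRDM12 are at the limit of what these depths resolve.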
